A study of Mus musculus with 4 samples.

Results

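The trimethyl mark on lysine 9 of histone H3 (H3K9me3) was compared at large scale between secondary and ordinary mouse embryonic fibroblasts (MEF), which are connective tissue cells grown from mouse embryos. The windows compared were chosen by position and depth: fixed 100 kb windows of mouse build mm8 on the 18 autosomes other than chromosome 12, each holding 200 or more H3K9me3 reads when both libraries were added up. This left 21399 of the 25464 windows of 100 kb that held a read on any chromosome. Larger windows of 1 Mb, with at least 2000 reads, numbered 2221 of 2579.

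Chromatin immunoprecipitation with sequencing was done on 4 libraries, each the only one of its group. Ordinary MEF were grown in DMEM with 10% fetal bovine serum and gave libraries for H3K9me3, H3K4me3 and H3K27me3, all on 1 flow cell; their strain is not given in the sources used here. Secondary MEF gave 1 H3K9me3 library on another flow cell, made with the same antibody lot. These cells descend from induced pluripotent stem (iPS) cells with doxycycline-inducible Oct4, Klf4 and Sox2 and an Oct4-selectable cassette, derived in medium conditioned by Wnt3a-producing cells. The iPS cells were injected into BDF2 blastocysts, and fibroblasts were taken from the chimeric embryos at 13.5 days post coitum. Puromycin at 2 µg/ml for 48 hours selected for cells of the injected line over those of the host. Their medium held 10% cosmic calf serum and β-mercaptoethanol. Cell source, culture medium, selection and flow cell all changed together between the H3K9me3 libraries and cannot be told apart. With 1 library per group no test was possible, and every difference below is between libraries, with intervals that cover counting error only.

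H3K9me3 is written by methyltransferases such as SETDB1 and the SUV39H enzymes and is bound by HP1 proteins, and it marks heterochromatin, repeats and broad gene-poor blocks. It is known as a barrier that reprogramming factors meet in fibroblasts. H3K27me3 is the product of Polycomb repressive complex 2 and covers silenced developmental genes, while H3K4me3 sits at active and poised promoters. A stretch with little of either mark is usually far from active promoters and from Polycomb targets.

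Each value below is a level: the distinct read positions in a window divided by the mean of that library on that chromosome, so a level of 1 is the chromosome's average. The ratio is the secondary level over the MEF level. The 18 autosomes held 7188183 distinct read positions in the secondary library and 8158981 in the MEF H3K9me3 library, with 97.8% and 97.9% of reads at distinct positions. MEF H3K4me3 had 10559049 and MEF H3K27me3 8578448. The median 100 kb window held 298 secondary and 346 MEF H3K9me3 reads. Input libraries and gene annotation on this build were not used here, so a level includes background and regions are named by position.

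At large scale both fibroblast libraries followed much the same profile. Across 100 kb windows the log2 levels of secondary and ordinary H3K9me3 had a Pearson r of 0.942 and a Spearman rho of 0.947. Across 1 Mb windows these were 0.976 and 0.979. Within single chromosomes r lay between 0.928 and 0.953 at 100 kb and between 0.968 and 0.981 at 1 Mb. The windows share libraries, depth, mappability and base composition, whose part in these correlations was not tested, and windows are not replicates.

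The MEF H3K9me3 profile was tied at least as closely to MEF H3K27me3, a library of another mark from the same flow cell, with r of 0.952 at 100 kb and 0.978 at 1 Mb. Secondary H3K9me3 had r of 0.860 and 0.938 with MEF H3K27me3, and 0.807 and 0.874 with MEF H3K4me3. After both marks were taken out of both H3K9me3 profiles by linear regression on log2 levels, the 2 H3K9me3 libraries still had r of 0.752 at 100 kb and 0.801 at 1 Mb. The highest 10% of windows for H3K9me3, 2139 windows of 100 kb in each list, had 1330 windows (62.2%) in common between secondary and ordinary MEF. MEF H3K9me3 and MEF H3K27me3 had 1546 (72.3%) in common, and secondary H3K9me3 and MEF H3K27me3 had 925 (43.2%). Among the lowest 10% the first pair had 1342 (62.7%) in common. The H3K9me3-rich end of the genome was therefore shared in part, and the MEF list overlapped H3K27me3 more than the secondary list did.

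**Figure D1:**
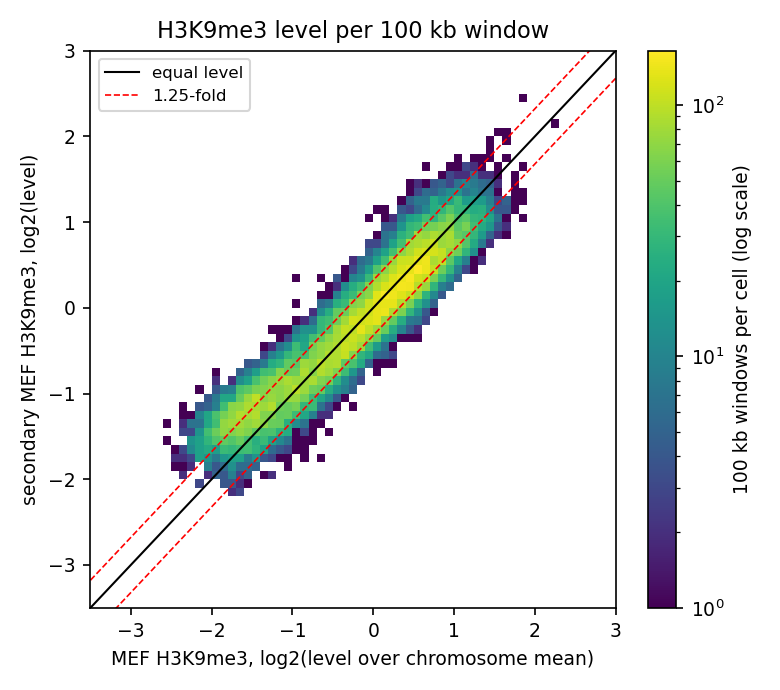
H3K9me3 level in 100 kb windows, as log2 of the level, for MEF (x axis) and secondary MEF (y axis). Colour gives the number of windows per cell on a log scale; the solid line is equality and the dashed lines are secondary levels at 125% and 80% of the MEF level. Most windows lie between the dashed lines, and at the low end the cloud sits above the line of equality.

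The size of the differences was modest. At 100 kb, the secondary level was between 80% and 125% of the MEF level in 70.8% of windows, and 94.9% lay within 1.5-fold. There were 21 windows 2-fold or more higher in the secondary library and 1 window 2-fold or more lower. Of the 21, 13 reached the minimum of 200 reads only through their high secondary count, as did the lower one through its MEF count, so these numbers depend on the minimum. At 1 Mb, 57.4% lay within 1.1-fold, 99.6% within 1.5-fold, and ratios ran from 0.693 to 1.67. The SD of the log2 ratio was 0.30 at 100 kb and 0.20 at 1 Mb, where counting alone gives 0.13 and 0.04. Counting error thus amounted to 18.3% of the variance at 100 kb and 4.24% at 1 Mb. Log2 ratios from plus strand reads and from minus strand reads, which come from the same libraries, had r of 0.691 at 100 kb and 0.920 at 1 Mb.

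The secondary profile was flatter. The SD of its log2 level at 100 kb was 0.78, against 0.88 for MEF H3K9me3, 1.17 for MEF H3K27me3 and 1.62 for MEF H3K4me3. From the 10th to the 90th percentile of windows the secondary level ran from 0.408 to 1.74 and the MEF level from 0.341 to 1.77. These percentiles are taken within each library, so they do not compare the same windows. Between them the gap was wider at the low end than at the high end. Input was not used here, and the part of background reads in this was not tested.

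A window was called higher where the secondary level was at least 125% of the MEF level, and lower where it was at most 80%, with the 95% interval of the ratio excluding 1. By this rule 3748 of 21399 windows (17.5%) were higher in secondary MEF and 2217 (10.4%) were lower. The minimum of reads, set on both libraries together, did not treat the directions alike. With the high library put at the level of the low one, 677 of the windows called higher (18.1%) and 17 of those called lower (0.767%) would have fallen under the minimum. The window ratios nearest to these limits were 1.2501 inside and 1.2499 outside on the higher side. At 1 Mb the limit was 1.1-fold, and 573 of 2221 windows (25.8%) were higher and 374 (16.8%) lower. These counts depend on the minimum of reads as well. By the same measure 70 of the higher 1 Mb windows (12.2%) and 0 of the lower ones would have fallen under it. With the minimum doubled, 271 windows of 1 Mb were higher and 256 lower.

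Shifted windows lay beside windows shifted the same way. Of the windows called higher, 51.5% had a next window that was also higher, set against 17.5% of all windows, and 1.84% had a next window that was lower. Of the windows called lower, 29.8% were followed by another lower one, set against 10.4%, and 2.55% by a higher one. The correlation of log2 ratios was 0.556 between neighbours, 0.248 at 0.5 Mb, 0.181 at 1 Mb, 0.103 at 2 Mb and 0.0159 at 5 Mb. The levels of the marks themselves kept a correlation over longer distances, with MEF H3K9me3 at 0.864 between neighbours and 0.545 at 1 Mb. The ratio carries the counting error of both libraries, which lowers its correlations. Between 1 Mb windows the log2 ratio had r of 0.453 at 1 Mb, 0.258 at 2 Mb and 0.0151 at 5 Mb. Averaged over the genome, the shared shift thus faded within 5 Mb. Single stretches were longer, with runs of 1 Mb windows of up to 10 Mb described below.

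**Figure D2:**
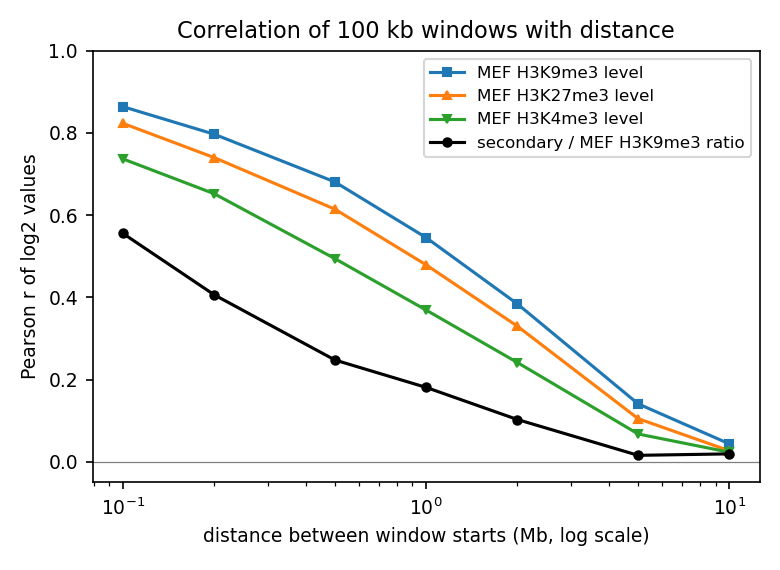
Pearson r between 100 kb windows of the same chromosome (y axis) against the distance between them in Mb on a log axis. The black line is the log2 ratio of secondary to MEF H3K9me3, which falls from 0.556 at 0.1 Mb to near 0 at 5 Mb; the coloured lines are the log2 levels of the 3 MEF marks.

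Runs of at least 5 neighbouring windows, all called the same way, were more frequent and somewhat longer in the higher direction. There were 141 higher runs covering 94.5 Mb and 23 lower runs covering 13.7 Mb. These counts depend on the minimum of reads, which did not treat the directions alike. With the minimum doubled there were 60 higher and 19 lower runs. The higher runs took in 945 windows (25.2% of those called higher), and the lower runs 137 (6.18% of those called lower). The median higher run was 600 kb and the longest 2100 kb; the median lower run was 500 kb and the longest 1400 kb. The ratio over a whole run lay between 1.33 and 1.74 for higher runs, with a median of 1.44, and between 0.652 and 0.744 for lower runs, with a median of 0.721. Runs were picked on this ratio, so its size is a description. Most 5 kb bins inside a run shifted with it: among bins with at least 10 reads the median share on the run's side was 80.0% in higher runs and 84.7% in lower runs. These bins hold the same reads that chose the runs, so the shares are a description.

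Each of the 18 autosomes held higher runs. Chromosome 1 had the most windows in them, at 90, followed by chromosome 8 with 74, while chromosome 19 had 15 and chromosome 10 had 28. As a share of the chromosome's windows this was 4.96%, 6.10%, 2.75% and 2.28%. Lower runs were found on 11 chromosomes, with 21 windows each on chromosomes 8 and 13, and 7 chromosomes had none.

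MEF H3K4me3 and H3K27me3 differed widely between the kinds of run. Beyond a single read per window, their levels were not used to choose the runs, but H3K27me3 is not independent of the choice, since the MEF H3K9me3 level in the ratio had r of 0.952 with it. In windows of higher runs the median H3K4me3 level was 0.144 and the median H3K27me3 level 0.267, set against 0.536 and 0.775 over all windows. In windows of lower runs these were 0.655 and 1.78. Both marks stood under a level of 0.5 in 74.5% of higher-run windows, in 30.1% of all windows and in 0.730% of lower-run windows. H3K27me3 was at or above the chromosome average in 84.7% of lower-run windows, in 37.8% of all windows and in 5.93% of higher-run windows. Higher runs lay mostly where both promoter and Polycomb marks were sparse, and lower runs where H3K27me3 was abundant. These values depend on the minimum of reads. In higher runs with H3K27me3 under 0.5, 184 of 683 windows reached it only through the secondary count. In lower runs 1 of 137 windows reached it only through the MEF count. With the minimum doubled, the medians of H3K4me3 and H3K27me3 were 0.246 and 0.470 in higher runs and 0.495 and 1.51 in lower runs.

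Windows called higher outside runs were also mostly mark-poor, with more exceptions. Of these 2803 windows, 62.8% had both marks under 0.5, and the median H3K27me3 level was 0.328. H3K4me3 stood at the chromosome average or above in 23.8% of them, while it did so in 0.423% of windows in higher runs. Of the 671 higher windows with that much H3K4me3, 4 lay in runs and 216 (32.2%) had a higher window next to them, against 76.7% of the other higher windows. Promoter-rich windows with a higher ratio were therefore seldom part of a run.

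The higher runs fell on both sides of an H3K27me3 level of 0.5, a division made after seeing the data. The runs formed a continuous band across it, with the nearest ones at 0.498 and 0.514, so the division is a cut through a range. Below it were 107 runs (68.3 Mb) on all 18 autosomes, with median levels of 0.121 for H3K4me3 and 0.227 for H3K27me3. Their H3K9me3 was also low, with a median level of 0.495 in secondary MEF and 0.338 in MEF. No run among these 107 had a MEF H3K9me3 level above 1, and 6 had a secondary level above 1. They were mark-poor stretches, in which the secondary library was less depleted. Their windows held few reads, with medians of 161 secondary and 123 MEF reads, and reads with 2 genomic locations made up a median of 7.58% of reads there. Of their 683 windows, 184 (26.9%) reached the minimum of reads only through the secondary count, and 41 of the 107 runs held no such window. The part of shallow counts and repeated sequence in these runs was not tested.

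The other 34 higher runs (26.2 Mb) were rich in H3K9me3 in secondary MEF, and are called H3K9me3-rich for that library. Their level in secondary MEF lay between 1.05 and 2.91, with a median of 1.77, and every one of them was above the chromosome average. In MEF the level lay between 0.745 and 1.89, with a median of 1.21, and 22 of 34 were above 1. H3K27me3 had a median of 0.714 and H3K4me3 a median of 0.363, with none above 0.598. Windows held medians of 602 secondary and 462 MEF reads, all 262 of them enough at the lower of the H3K9me3 levels, and reads with 2 locations were a median of 2.47%. In these runs a median of 89.6% of the 5 kb bins stood on the higher side. These blocks held H3K9me3 near or above the average in both fibroblasts and more of it in the secondary library.

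**Figure D3:**
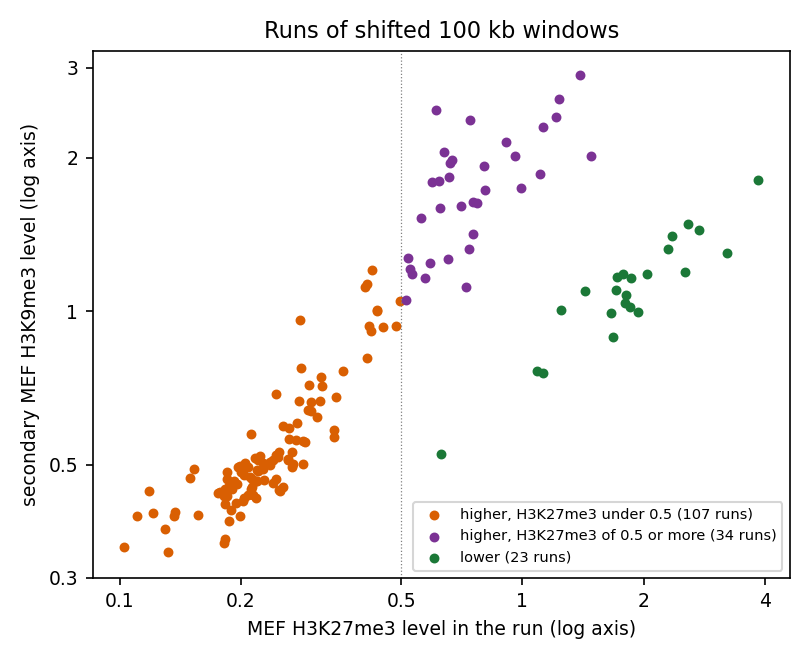
Each point is a run of at least 5 shifted 100 kb windows, placed by its mean MEF H3K27me3 level (x, log axis) and its mean secondary MEF H3K9me3 level (y, log axis); the dotted line is an H3K27me3 level of 0.5. The 107 mark-poor higher runs sit at the lower left, the 34 H3K9me3-rich ones at the upper middle, and the 23 lower runs at higher H3K27me3.

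The longest higher run covered chr15:86400001-88500000, or 21 windows. H3K9me3 stood at 1.98 in secondary MEF and 1.39 in MEF, with H3K27me3 at 0.670 and H3K4me3 at 0.403, from 14446 and 10964 H3K9me3 reads. Its ratio was 1.43 (95% interval 1.39 to 1.46), and single windows ran from 1.28 to 1.75. By the rule for a run each window had to pass the limit, so this range is a description.

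A shorter run of the same kind lay on chr2:178500001-179700000, at 2.14 in secondary MEF and 1.48 in MEF. H3K27me3 was at 0.913 and H3K4me3 at 0.465 there, and the ratio was 1.45 (1.40 to 1.495). On chr4:126900001-128000000 the H3K9me3 levels were 2.05 and 1.42, with H3K27me3 at 0.638 and H3K4me3 at 0.381, for a ratio of 1.44 (1.39 to 1.49). In these 3 runs H3K9me3 exceeded both other marks in both libraries, and between 88.6% and 92.0% of the 5 kb bins were on the higher side.

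The other 2 of the 5 longest higher runs were mark-poor. On chr6:73400001-74800000, H3K9me3 was 0.529 in secondary MEF and 0.360 in MEF, with H3K27me3 at 0.249 and H3K4me3 at 0.138. The ratio was 1.47 (1.38 to 1.56), from 2391 and 1811 reads. On chr8:78200001-79500000 the levels were 0.511 and 0.363, with 0.240 and 0.115 for H3K27me3 and H3K4me3, and a ratio of 1.41 (1.32 to 1.496). The ratios were of the same size as in the H3K9me3-rich runs, while all 4 levels behind them were far lower.

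The longest lower run stood apart from the other lower runs. It covered chr1:11200001-12600000, with H3K9me3 at 0.524 in secondary MEF and 0.764 in MEF, H3K27me3 at 0.628 and H3K4me3 at 0.464. Its ratio was 0.686 (0.650 to 0.723), from 2145 and 3670 reads. It was the only lower run with H3K27me3 under the chromosome average. A second lower run lay just beyond it, on chr1:12700001-13300000, at 1.18 and 1.71 for H3K9me3, 1.78 for H3K27me3 and 1.32 for H3K4me3, with a ratio of 0.690 (0.654 to 0.729).

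The remaining lower runs among the 5 longest were rich in H3K27me3. On chr8:94500001-95400000, H3K9me3 was 1.40 in secondary MEF and 1.89 in MEF, with H3K27me3 at 2.35 and H3K4me3 at 1.23. On chr8:11900001-12600000 the same levels were 1.30, 1.90, 3.23 and 0.603. On chr9:69300001-70000000 they were 0.997, 1.45, 1.94 and 0.650. The ratios were 0.742 (0.715 to 0.770), 0.683 (0.653 to 0.713) and 0.686 (0.653 to 0.721). In all 3 the H3K27me3 level exceeded both H3K9me3 levels, and across all 23 lower runs the secondary H3K9me3 level was below the H3K27me3 level. In all 141 higher runs it was above. The runs were chosen on a ratio whose MEF level had r of 0.952 with H3K27me3, so this split is not independent of the choice. Over all windows, the 10% with the least H3K27me3 had medians of 0.398 for secondary H3K9me3 and 0.186 for H3K27me3. In the 10% with the most H3K27me3 these medians were 1.67 and 2.63. With windows cut into 10 equal groups from least to most H3K27me3, they were 1.16 and 1.06 in group 7. In group 8 they were 1.316 and 1.312, and in group 9 they were 1.44 and 1.68. The order seen in the higher runs was thus also that of the medians over all windows up to group 8. The share of all windows with that order was not counted.

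**Figure D4:**
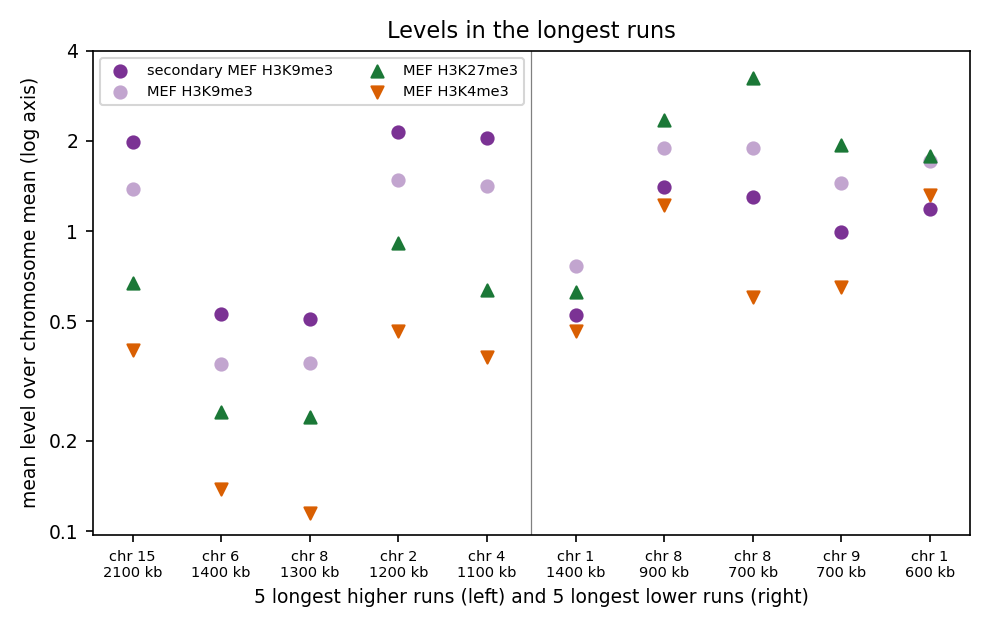
Mean level of each library in the 5 longest higher runs (left of the line) and the 5 longest lower runs (right), on a log axis where 1 is the chromosome mean. The higher runs on chromosomes 15, 2 and 4 have H3K9me3 above 1 in both fibroblasts and H3K27me3 below 1; 4 of the lower runs have H3K27me3 above both H3K9me3 levels.

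The marks also changed at run borders. In the last window inside a higher run the median ratio was 1.42 and in the first window outside 1.14. A run ends where the ratio no longer passes the limit, so a step in the ratio and in the H3K9me3 levels behind it is set by the rule. Of the 282 ends of higher runs, 251 had a kept window outside, and the rest are not in the outside medians. Across that step the median MEF H3K9me3 level went from 0.391 to 0.503 and H3K27me3 from 0.268 to 0.426, while secondary H3K9me3 went from 0.551 to 0.572. At lower runs the ratio went from 0.735 inside to 0.911 outside. There MEF H3K4me3 went from 0.694 to 1.45 and H3K27me3 from 1.75 to 1.32. MEF H3K9me3 went from 1.53 to 1.39 and secondary H3K9me3 from 1.097 to 1.31. The last window inside a lower run was hence poorer in H3K4me3 and richer in H3K27me3 than the first beyond it. H3K27me3 is tied to the MEF H3K9me3 level in the ratio, so its step is not independent of the rule. Over the 46 ends of lower runs the outside H3K4me3 median varied, from 1.45 in the first window to 0.758 at 800 kb. At 1 Mb outside, the median ratio was 1.0999 for higher and 0.958 for lower runs.

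Over all windows the ratio fell as MEF H3K27me3 rose. With windows ranked by H3K27me3 and cut into 10 groups of equal size, the median ratio was 1.33 in group 1 (the lowest), 1.19 in group 2, 1.02 in group 4, 0.968 in group 8 and 0.840 in group 10. Of the windows in group 1, 58.4% were called higher and 0.140% lower; in group 10 these were 1.21% and 35.98%. In group 1 the median level was 0.398 in secondary MEF and 0.303 in MEF, and in group 10 it was 1.67 and 1.96. The log2 ratio had r of -0.555 with log2 H3K27me3 over 100 kb windows, and every chromosome gave a negative value, from -0.669 to -0.432. The MEF H3K9me3 level in the ratio had r of 0.952 with H3K27me3, and the secondary profile was flatter. The negative values are thus not independent of how the ratio is formed. Of all windows called higher, 677 (18.1%) also reached the minimum of reads only through the secondary count.

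Along H3K4me3 the ratio took a different course. It was highest in group 1 of 10, at a median of 1.32, lowest in group 6, at 0.899, and rose again to 1.097 in group 10. The share called higher was 56.3% in group 1, 3.37% in group 6 and 16.9% in group 10. The rise at the promoter-rich end was visible at 100 kb, while in 1 Mb windows group 10 had a median of 0.992. The r with log2 H3K4me3 was -0.275 at 100 kb and -0.560 at 1 Mb, which a curve of this shape makes a poor summary.

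Taking both marks together in 5 groups each separated their parts. Where both were lowest, 3621 windows had a median ratio of 1.30. At the highest H3K27me3, the median was 0.806 in the middle group of H3K4me3 (900 windows) and 0.962 in its top group (1786 windows). At the highest H3K4me3, it was 1.18 in group 2 of H3K27me3 (199 windows) and fell with each step to 0.962 in group 5. At every level of H3K4me3 the ratio was lower at the highest H3K27me3 with at least 20 windows than at the lowest. A linear fit on both log2 levels took up 36.8% of the variance of the log2 ratio at 100 kb and 42.4% at 1 Mb. Both marks were read from ordinary MEF alone, as was the MEF H3K9me3 level in the ratio, so marks and ratio are not independent. Whether the marks changed in the secondary cells was not tested.

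**Figure D5:**
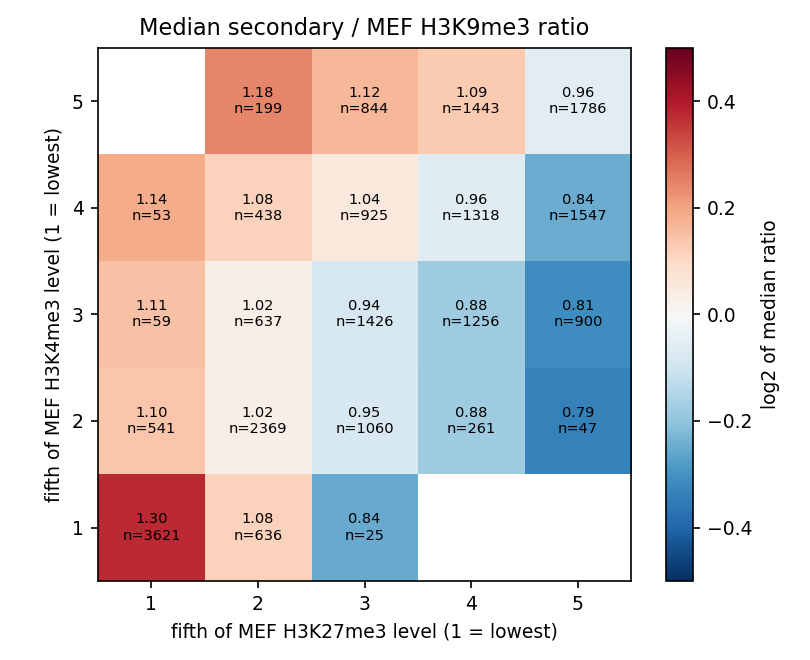
Median ratio of secondary to MEF H3K9me3 in 100 kb windows cut into 5 equal groups of MEF H3K27me3 (x axis) and of MEF H3K4me3 (y axis); colour is log2 of the median ratio and n is the number of windows, with cells under 20 windows left blank. The ratio is highest, 1.30, where both marks are lowest and falls toward high H3K27me3.

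Each window was also set against windows with like levels of both marks, an alternative chosen after seeing the data, by dividing its ratio by their median ratio. By this measure 54 higher and 3 lower runs were found. Of the 34 H3K9me3-rich runs, 32 kept windows in such runs, and over all 34 the run medians of the ratio relative to like windows lay between 1.32 and 1.92. Of the 107 mark-poor runs 3 did so, with run medians between 0.959 and 1.42 and a middle value of 1.14. All runs had been chosen on the undivided ratio, with each window of a higher run at 125% or more. With windows cut into 5 groups of each mark, the median ratio was 1.30 where both marks are lowest. It was 0.947 in group 2 of H3K4me3 and group 3 of H3K27me3, where the median levels of the H3K9me3-rich runs fall. Dividing by such medians raises the ratio in H3K9me3-rich runs and lowers it in mark-poor runs. This contrast between the kinds of run was therefore largely set by the choice. Among lower runs, the pair on chromosome 1 between 11200001 and 13300000 kept windows, and the other 21 did not. All 23 lower runs were below windows with like marks, with run medians from 0.708 to 0.907 (middle value 0.859), and 5 stood at 80% or less. Each window in a lower run had been chosen at 80% or less. In the 5 groups of each mark, cells with at least 20 windows had median ratios of 0.791 or more. A place below like windows was therefore nearly set by the choice. Under this measure the longest lower run covered chr1:11200001-13000000, at levels of 0.665 in secondary MEF and 0.944 in MEF.

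Leaving out all 5 kb bins with MEF H3K4me3 or H3K27me3 at 2-fold of its mean or more changed the run ratios little. These ratios cover the windows of a run that still held 200 reads, and windows that fell under this minimum left the sum. All 141 higher runs still reached 125% of the MEF level, and 22 of 23 lower runs stood at 80% or less, with median ratios of 1.41 and 0.714. Reads of each strand alone also kept every one of the 164 runs past the limit in its direction when summed over the run, although the runs had been chosen on those same reads. In the windows that kept 200 reads, the shift was thus also present outside the bins richest in these marks. The bins left in hold reads that chose the runs, so these ratios are a description. In the 107 mark-poor runs both marks were sparse from the start, with median levels of 0.121 for H3K4me3 and 0.227 for H3K27me3. When windows were called anew without those bins, 11 of 23 lower runs, 73 of 107 mark-poor runs and 28 of 34 H3K9me3-rich runs kept a window in a run. Of the windows in runs, 66 of 137 lower ones (48.2%) and 659 of 945 higher ones (69.7%) were in runs again.

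In 1 Mb windows, where a run needed 3 neighbours past 1.1-fold, 59 higher runs covered 258 Mb and 24 lower runs covered 81 Mb. These totals rest on calls for which the minimum of reads did not treat the directions alike. Of the 1 Mb windows called higher, 70 of 573 reached it only through the secondary count. Of those called lower, 0 of 374 reached it only through the MEF count. The longest were 3 higher runs of 10 Mb each, on chr14:86000001-96000000, chr1:109000001-119000000 and chr14:105000001-115000000, with ratios of 1.28, 1.28 and 1.255. Their levels were 0.477, 0.493 and 0.510 in secondary MEF and 0.373, 0.386 and 0.406 in MEF, with H3K4me3 between 0.166 and 0.207. The longest lower run covered 6 Mb of chromosome 1 from 9000001, at 0.798 in secondary MEF and 1.01 in MEF. It took in the pair of lower runs on chromosome 1 named above. In windows of higher runs at this scale the medians were 0.161 for H3K4me3 and 0.277 for H3K27me3, and in lower runs 1.04 and 1.30, set against 0.831 and 0.873 over all windows.

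Among single 1 Mb windows, the highest ratio was on chromosome 11 from 15000001, at 1.67 (1.54 to 1.82), where H3K9me3 was 0.328 in secondary MEF and 0.196 in MEF. Of its 9 kept 100 kb windows all 9 were called higher. This window and the next 3 reached the minimum of 2000 reads only through their high secondary count, so their rank depends on the minimum. The next 3, on chromosome 1 from 149000001, chromosome 3 from 74000001 and chromosome 13 from 87000001, were mark-poor as well, with ratios of 1.66, 1.58 and 1.57. The fifth, on chromosome 13 from 57000001, was of the H3K9me3-rich kind, at 2.07 in secondary MEF and 1.32 in MEF, with H3K27me3 at 0.787 and a ratio of 1.56 (1.503 to 1.62).

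The lowest ratios of single 1 Mb windows were on chromosome 1 from 11000001, at 0.693 (0.649 to 0.739), and from 12000001, at 0.717 (0.681 to 0.754). In both, 9 of 10 windows of 100 kb were called lower. Chromosome 8 from 12000001, chromosome 13 from 31000001 and chromosome 5 from 92000001 followed at 0.747, 0.762 and 0.766. Their H3K27me3 levels were 3.12, 2.19 and 0.965, so the last was not rich in that mark.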

How the data were processed

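Read positions of 4 chromatin immunoprecipitation libraries were used, grouped by the labels. The deposited values are signed genome positions of aligned reads, a unit other than a measured level, not normalised. Alignment was to mm8 by Bowtie, run by the authors with --best, --concise, -n 2, -m 2, -k 2, -l 36 and -e 70, per the file headers; its version is not given in the sources used here. Per the labels' protocols, chromatin fragments averaged 500 bp, and libraries were amplified over 18 cycles and cut from a gel at 150 to 350 bp.

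Reads with 1 location were reduced to one per position and strand, moved 75 bp from the 5′ end (read length of 36 bases assumed) and counted in 5 kb bins summed to windows. A window needed 1 read in every library, and each chromosome was scaled to its mean kept window. Ratio intervals are Clopper-Pearson at 95%. PCR copies and shared fragments are not counted by them. Python 3.11.15, NumPy 2.4.6, pandas 2.3.3 and SciPy 1.17.1 were used, and the code was tested on simulated data.

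Named regions are the 5 longest runs in each direction and the 5 highest and lowest 1 Mb windows; other regions in the text were chosen after their values were seen. The comparison, its windows and its limits were chosen with earlier results of these data known. Alternatives covered repeated reads, the shift, scaling, window start, minimum reads, reads with 2 locations, bins left out, strand, chromosome 12 and the run rule. Gene names were left out because the gene table at hand is on another build.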

Additional observations from a re-analysis of the deposited data

How the results depend on the processing

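Of 168 recomputed values, 119 stayed within 1.5 times the count or within 1 SD over chromosomes of the correlation or level, and none reversed. With the minimum of reads removed, r was 0.960 at 100 kb and 0.983 at 1 Mb. With the minimum doubled, r was 0.881 and 0.954, higher runs numbered 60 and higher 1 Mb windows 271, and the levels in higher runs were 0.246 (H3K4me3) and 0.470 (H3K27me3). Then 33 of the 34 H3K9me3-rich runs kept windows in a run and 14 of the 107 mark-poor ones, whose windows lack the reads by construction. Without marked bins, r was 0.894 and 0.942, the levels in higher runs were 0.418 and 0.469, and the H3K4me3 level in lower runs was 1.06. The strands were taken at 0.5 times the minimum of reads. The plus strand alone gave r of 0.931 at 100 kb, 67 higher and 13 lower runs, and levels in higher runs of 0.287 and 0.554. The minus strand alone gave 0.930, 54 higher runs, and levels of 0.301 and 0.579. Scaling to the median window gave H3K4me3 levels of 0.278 in higher and 1.21 in lower runs and an H3K27me3 level of 2.33 in lower runs, since the unit of a level changes with it. The share of calls that were higher was then 68.0%, against 62.8%.

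The number of runs followed the run rule. A limit of 115% (or its inverse) gave 87 lower runs. A fold of 1.5 gave 10 higher runs, with levels of 0.287 and 0.532, and 0 lower runs. Runs of 3 windows or more numbered 399 higher and 149 lower. Runs of 10 or more numbered 12 higher, with levels of 0.271 and 0.442, and 1 lower, with 0.442 and 0.597. Allowing 1 window not called inside a run gave 241 higher and 86 lower. At 1 Mb a limit of 125% (or 80%) left 241 higher and 17 lower windows. Relative to windows with like marks, chosen after seeing the data, there were 54 higher runs (levels 0.374 and 0.792), 3 lower runs (0.377 and 0.541) and 349 higher 1 Mb windows. With the 18 autosomes scaled together, run counts stayed within 1.5 times, and 809 of 945 higher-run windows and 94 of 137 lower-run windows were in runs again. No paired analysis was possible because each group held 1 library.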

Other observations

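The 21 windows of 100 kb that were 2-fold or more higher in secondary MEF were of several kinds. Both MEF marks stood under 0.5 in 15 of them, of which 13 reached the minimum of reads only through their secondary count, so their number depends on the minimum. Among the 21, 7 lay in runs. The highest, chr9:123700001-123800000, had a ratio of 2.52 (95% interval 2.14 to 2.99) with H3K4me3 at 1.65 and H3K27me3 at 0.444. On chr1:173300001-173400000 the ratio was 2.12 (1.86 to 2.43) with H3K4me3 at 1.51, the only other window of the 21 with H3K4me3 above the chromosome average. Secondary H3K9me3 levels above 2 were found in 4 windows, of which chr15:83700001-83800000 was at 2.69 with 1.34 in MEF. The 1 window that was 2-fold or more lower, chr10:21700001-21800000, had a ratio of 0.474 (0.367 to 0.608) from 91 and 219 reads, with H3K27me3 at 0.743.

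The place of the runs along their chromosomes is given as a description. Of the 34 H3K9me3-rich runs 8 (23.5%) ended within the last 10 Mb of their chromosome, as did 6 of the 107 mark-poor runs (5.61%) and 1 of the 23 lower runs (4.35%). Of all windows 8.04% lay there, which is a share of windows set beside shares of runs. The share of H3K9me3-rich runs rests on 8 runs, and those of the mark-poor and lower runs were near that of all windows.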
